A study of Rattus norvegicus with 56 samples.

Results

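The values described here are the L-dopa by pramipexole interaction in the dorsal striatum of rats with a nigral lesion, that is, the pramipexole difference among rats given L-dopa minus the pramipexole difference among rats given saline in its place. It was measured in 28 of the 56 rats of the series, all those whose titles name them as lesioned, with 1 Affymetrix Rat230_2 array per rat. All 28 were male Sprague Dawley (Crl:OFA) rats that carried a nigral loss on both sides of the brain, produced by overexpressing alpha-synuclein from an adeno-associated virus (AAV). Treatment began 5 weeks after surgery and lasted 3 weeks. Rats 1 to 7 received L-dopa methyl ester (50 mg/kg a day, with the decarboxylase inhibitor benserazide) and then place conditioning with pramipexole (2 mg/kg in 4 sessions), and are called rats given both drugs. Rats 8 to 14 received L-dopa and saline conditioning (L-dopa only). Rats 15 to 21 received saline in place of L-dopa and then pramipexole conditioning (pramipexole only). Rats 22 to 28 received saline at both stages (neither drug), so this group also carries the lesion and no group of the comparison is intact. The tissue was taken after the place preference test, 24 or 48 hours after the last conditioning dose depending on the drug-paired compartment, and the labels do not give the interval for each rat. The series concerns place preference for pramipexole after L-dopa and dopamine loss, and the interaction asks whether an L-dopa history changed the pramipexole difference in transcripts.

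L-dopa is the precursor from which dopamine is made, and pramipexole is an agonist of the D2 and D3 dopamine receptors. The dorsal striatum is made up mostly of GABAergic medium spiny neurons. Those with the D1 receptor express the peptides dynorphin and substance P, and those with the D2 receptor express enkephalin. Loss of dopamine and later L-dopa are known to alter these peptides and activity-dependent genes in both kinds of neuron. A positive interaction means that the pramipexole difference was higher with L-dopa than without it.

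Signals are given as log2 values throughout, and 18500 probe sets with a mean above 5 over the 28 arrays were tested. Medians of the 28 arrays ran from 5.62 to 5.82. Pairs of arrays correlated at 0.960 to 0.987 across probe sets. The tissue markers Penk (proenkephalin; mean 12.3), Drd1 (10.8 on its brighter probe set) and Drd2 (9.69) were well above that minimum, whereas Drd3 (3.64) and tyrosine hydroxylase Th (3.99) were below it and were not tested. Rat 2, given both drugs, stood apart. Its mean correlation with the other 27 arrays was 0.965, against 0.977 to 0.983 for each of the others, so results are given with and without it. A measure of RNA and labelling quality, the 3' minus 5' signal of the actin and GAPDH control probe sets, averaged 1.06 ± 0.078 with both drugs, 1.11 ± 0.087 with L-dopa only, 0.961 ± 0.077 with pramipexole only and 0.87 ± 0.1 with neither drug (SD, n = 7 each). It was thus higher in both L-dopa groups than in both saline groups. Its pramipexole difference was negative with L-dopa and positive without it, so the measure had a negative interaction of its own. Its part in the results was not tested beyond a fit with it as a covariate. Signals of 15 probe sets separate arrays 1 to 37 of the series from arrays 38 to 56, and all 28 lesioned rats lie among the first.

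No probe set passed for the interaction. At a Benjamini-Hochberg adjusted p under 0.05, limma called 0 of 18500 probe sets (0%), with all 28 rats and also without rat 2, and the smallest adjusted p values were 0.318 and 0.344. At an unadjusted p under 0.05 there were 1214 probe sets (6.56%) with all rats, 536 positive (2.9%) and 678 negative (3.66%). Without rat 2 there were 1237 (6.69%), and 979 of the 1214 kept both that threshold and their sign. With the 3' minus 5' signal as a covariate only 516 of the 1214 did so, and 876 probe sets passed it in all. The median interaction over all probe sets was -0.00, its median absolute size 0.10 and its median SE 0.13. An interaction above 1 in absolute size was seen in 18 probe sets with all rats and in 23 without rat 2.

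The simple effects that make up the interaction gave 0 or 2 calls each. Pramipexole with L-dopa, both drugs against L-dopa only, gave 0 calls in limma (0%) and 1027 probe sets at an unadjusted p under 0.05 (5.55%). Pramipexole without L-dopa, pramipexole only against neither drug, gave 2 calls (0.0108%), both of them probe sets of Mfhas1, and 1255 at the unadjusted threshold (6.78%). L-dopa with pramipexole, both drugs against pramipexole only, gave 0 calls (0%) and 924 at the unadjusted threshold (4.99%). L-dopa without pramipexole, L-dopa only against neither drug, gave 2 calls (0.0108%), of which Peli2 was lower (0.00541%) and the unnamed probe set 1379948_at higher (0.00541%). That comparison had the highest unadjusted count, 2289 (12.4%), which became 928 with the 3' minus 5' signal as a covariate. The group given neither drug enters both effects without the other drug. Over all tested probe sets the mean farthest from that of the other 3 groups was the mean of rats given neither drug in 34.27% of cases, against 24.1% for both drugs, 23.94% for L-dopa only and 17.69% for pramipexole only. Among the 1214 probe sets of small interaction p, these shares were 20.02% for both drugs, 24.38% for L-dopa only, 13.26% for pramipexole only and 42.34% for neither drug. Opposite signs of pramipexole with and without L-dopa are built into that selection (1147 of the 1214, against 9507 of all 18500), and only 46 probe sets had an unadjusted p under 0.05 for both opposite effects.

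**Figure D1:**
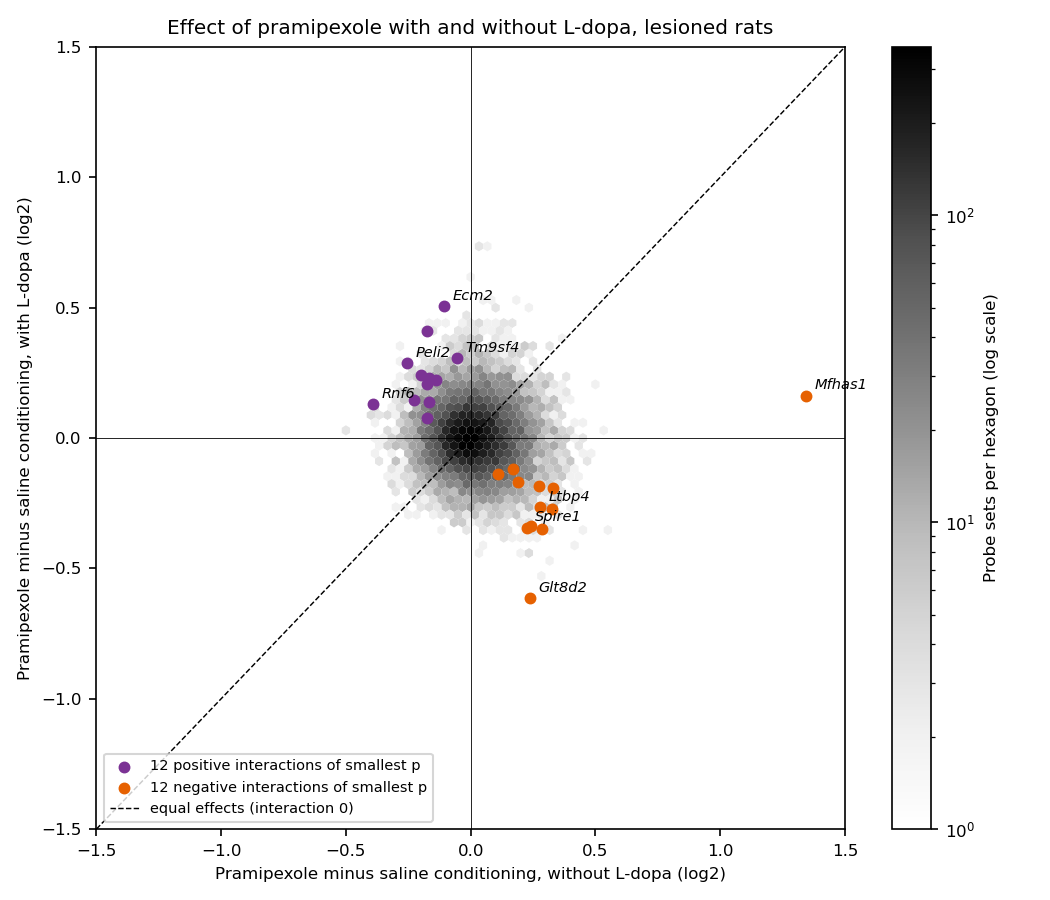
Pramipexole minus saline conditioning in lesioned rats without L-dopa (x axis, log2) and with L-dopa (y axis, log2). Grey hexagons on a log colour scale show those of the 18500 probe sets that lie within the axis limits, which leaves out Ttr. Points show the 24 genes of smallest interaction p. Of these 24 points, 23 lie in the quadrants of opposite sign, and Mfhas1 lies alone at 1.34 without L-dopa and 0.16 with it.

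Mfhas1, a leucine-rich repeat protein with a GTPase-like domain, was the only named gene called for pramipexole. Its probe set 1393738_s_at had a signal of 6.19, 7.17 and 7.58 (lowest, median and highest rat) with both drugs and 6.37, 7.11 and 7.25 with L-dopa only. With pramipexole only the signal was 7.18, 7.64 and 7.93, and with neither drug 5.82, 6.03 and 6.99. Every rat given pramipexole only was thus above every rat given neither drug, while the 2 groups given L-dopa overlapped. Pramipexole without L-dopa raised this signal by 1.34 ± 0.20 (SE; limma adjusted p = 0.00841), whereas with L-dopa the difference was 0.16 ± 0.20. The interaction was -1.18 ± 0.29 (95% interval -1.77 to -0.59) and did not pass (limma adjusted p = 0.608). Without rat 2, the lowest rat of its group, it was -1.03. A second probe set, 1398648_at, gave a rise of 1.38 ± 0.23 without L-dopa (limma adjusted p = 0.0189) and an interaction of -1.30 ± 0.33. The brightest Mfhas1 probe set, 1389541_at with a mean of 8.53, showed neither, with an effect of -0.01 without L-dopa and an interaction of 0.01. The call on 1393738_s_at held in all 28 fits that left out 1 rat and was lost with all 56 arrays in the fit (adjusted p = 0.104). That on 1398648_at was lost without rat 15, 16, 21, 24, 26, 27 or 28 (highest adjusted p = 0.0845), with no filter on dim probe sets (1.38; 0.0708), with all 56 arrays (1.38; 0.0745) and with the 3' minus 5' signal as a covariate (1.42; 0.0563), with the rise in log2 given first.

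Peli2, a Pellino ubiquitin ligase of Toll-like and interleukin-1 receptor signalling, had the smallest interaction p of all named genes. Its signal was 5.66, 6.02 and 6.21 (lowest, median and highest rat) with both drugs and 5.48, 5.67 and 5.80 with L-dopa only. With pramipexole only it was 5.67, 5.89 and 6.02, and with neither drug 5.90, 6.13 and 6.31. Rats given L-dopa only lay below every rat given neither drug, while the 2 pramipexole groups overlapped. With L-dopa and no pramipexole the signal fell by 0.46 ± 0.07 (limma adjusted p = 0.0185), and with pramipexole the L-dopa difference was 0.08. Seen from the other side, the pramipexole difference was 0.29 with L-dopa and -0.26 without it. The interaction was 0.54 ± 0.11 (95% interval 0.33 to 0.76; limma adjusted p = 0.318), and 0.53 without rat 2. Leaving out rat 5, the lowest of the rats given both drugs, was the only one of 28 such fits in which an interaction passed, with 0.593 ± 0.099 for Peli2 (limma adjusted p = 0.0438). The L-dopa call was lost without rat 8, 24, 25, 26 or 28 (highest adjusted p = 0.0683), with an intensity trend and robust prior (0.0562) and with the 3' minus 5' signal as a covariate, where the effect was -0.58 ± 0.11 (0.153). A second, brighter Peli2 probe set, 1389592_at with a mean of 7.25, had an L-dopa effect without pramipexole of -0.18 and an interaction of 0.21. The probe set 1379948_at, which has no gene symbol, was dim, with a mean of 5.04 against the minimum of 5. Its mean in rats given neither drug was 4.74. The L-dopa effect without pramipexole on this probe set was 0.45 ± 0.07 and the interaction -0.24. That call was lost without rat 8, 9, 11, 12, 24, 25, 26 or 28 (highest limma adjusted p = 0.0839), with quantile normalization (0.0722), with an intensity trend and robust prior (0.0943) and with all 56 arrays (0.203). With the 3' minus 5' covariate it was lost too, at 0.35 ± 0.11 (0.85).

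Since no interaction passed, the 12 genes of smallest p in each direction are described as values. Their absolute interactions ran from 0.25 to 1.18, their unadjusted p from 2.1e-05 to 0.0013, and their limma adjusted p from 0.318 to 0.656. The group mean that stood farthest from the other 3 was that of both drugs in 8 of the 24 genes, of L-dopa only in 5, of pramipexole only in 2 and of neither drug in 9. A mean signal below 7 was found for 16 of the 24, so most of them lie in the dim range of the array. Their selection by p fixes that the values are far from 0.

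Beside Peli2 on the positive side, Parp11, a mono-ADP-ribosyltransferase, had a signal of 6.19, 6.37 and 6.55 (lowest, median and highest rat) with both drugs and 5.85, 6.20 and 6.26 with L-dopa only. With pramipexole only Parp11 was at 6.05, 6.18 and 6.32, and with neither drug at 6.15, 6.39 and 6.44, so the medians of both groups given 1 drug were lower than those of the groups given both or neither, with overlap. The Parp11 interaction was 0.40 ± 0.09 (95% interval 0.21 to 0.59). Adprh, which removes ADP-ribose from arginine, ran the same way, at 6.91, 7.26 and 7.51 with both drugs, 6.76, 7.00 and 7.12 with L-dopa only, 6.78, 6.97 and 7.23 with pramipexole only and 7.02, 7.11 and 7.42 with neither drug. Its interaction was 0.44 ± 0.11. Tm9sf4, a membrane protein of the transmembrane 9 superfamily, differed in shape. All 7 rats given both drugs (6.85 to 7.11, median 7.06) lay above all 7 given L-dopa only (6.60 to 6.75, median 6.73), while rats given pramipexole only (6.56 to 6.96, median 6.77) overlapped with those given neither drug (6.64 to 7.03, median 6.85). Tm9sf4 had an interaction of 0.36 ± 0.09, but its other 2 tested probe sets gave -0.03 and 0.16.

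The remaining positive genes were Ecm2, an extracellular matrix protein (0.61 ± 0.17), Arhgap24, a GTPase-activating protein (0.59 ± 0.16; 0.50 without rat 2, its highest rat), and Rnf6, a RING-type ubiquitin ligase (0.52 ± 0.14). Gtf2h4, a subunit of the transcription and repair factor TFIIH, had 0.38 ± 0.10, and Endod1, an endonuclease domain protein, 0.37 ± 0.10. Pcnx4, a pecanex protein, had 0.36 ± 0.10 on its named probe set and mixed signs on its others (-0.12, -0.08 and 0.45). Ssbp1, which binds single-stranded mitochondrial DNA, had 0.31 ± 0.08, with 0.13 on its other probe set. Eif2a, a translation initiation factor, had 0.25 ± 0.06. Eif2a had the smallest of the 12 positive values. Its rats given pramipexole only (7.81 to 7.96, median 7.93) lay below every rat given both drugs (8.01 to 8.15, median 8.06), and those given L-dopa only (7.93 to 8.08, median 8.00) and neither drug (7.90 to 8.21, median 8.12) overlapped with both of these groups.

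On the negative side, Spire1, an actin nucleator, had a signal of 6.11, 6.33 and 6.55 (lowest, median and highest rat) with both drugs and 6.37, 6.76 and 6.84 with L-dopa only. With pramipexole only Spire1 was at 6.23, 6.50 and 6.76, and with neither drug at 6.08, 6.35 and 6.53. The median was thus higher in the groups given 1 drug than in those given both or neither, with overlap between all neighbours. The Spire1 interaction was -0.57 ± 0.12 (95% interval -0.82 to -0.32; limma adjusted p = 0.419), built from a pramipexole difference of -0.34 with L-dopa and 0.22 without it. Its other 3 tested probe sets were also negative but smaller (-0.18, -0.16 and -0.05). Ltbp4, a latent TGF-beta binding protein, was at 5.29, 5.77 and 5.94 with both drugs, 5.79, 5.90 and 6.36 with L-dopa only, 5.96, 6.12 and 6.39 with pramipexole only and 5.55, 5.85 and 6.01 with neither drug. No rat given both drugs reached the lowest rat given pramipexole only, and the interaction was -0.54 ± 0.13.

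Sorl1, the sorting receptor of the amyloid precursor protein, gave the same sign on every probe set tested. The named one had 5.58, 5.91 and 6.30 (lowest, median and highest rat) with both drugs and 6.00, 6.21 and 6.35 with L-dopa only. With pramipexole only it had 5.80, 6.03 and 6.58, and with neither drug 5.49, 5.78 and 6.01. The groups overlapped, except that L-dopa only met neither drug only at the edge, and the interaction was -0.60 ± 0.16. The other 6 Sorl1 probe sets, all brighter, ran from -0.42 to -0.20. Such agreement between probe sets was not general. Chn1, chimaerin 1, a Rac GTPase-activating protein of neurons, had -0.52 ± 0.13 on a dim probe set and -0.06 on one with a mean of 11.2, and the orphan receptor Gpr61 had -0.46 ± 0.12 on one and 0.15 on the other.

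The other negative genes were Glt8d2, a glycosyltransferase domain protein (-0.85 ± 0.23), Fndc4, a fibronectin type III protein (-0.63 ± 0.17), and Timm44, a subunit of the mitochondrial import motor (-0.58 ± 0.15). Pabpn1, the nuclear poly(A)-binding protein, had -0.36 ± 0.09, and -0.16 and -0.05 on its brighter probe sets. Tubb3, the neuronal beta-tubulin, had -0.29 ± 0.08. Mapk6, also known as ERK3, had -0.25 ± 0.07. Tubb3 was the brightest of the 24. Its signal was 9.11, 9.18 and 9.32 with both drugs, 9.14, 9.31 and 9.44 with L-dopa only, 9.17, 9.23 and 9.36 with pramipexole only and 8.99, 9.04 and 9.21 with neither drug, so the last group was the low one.

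**Figure D2:**
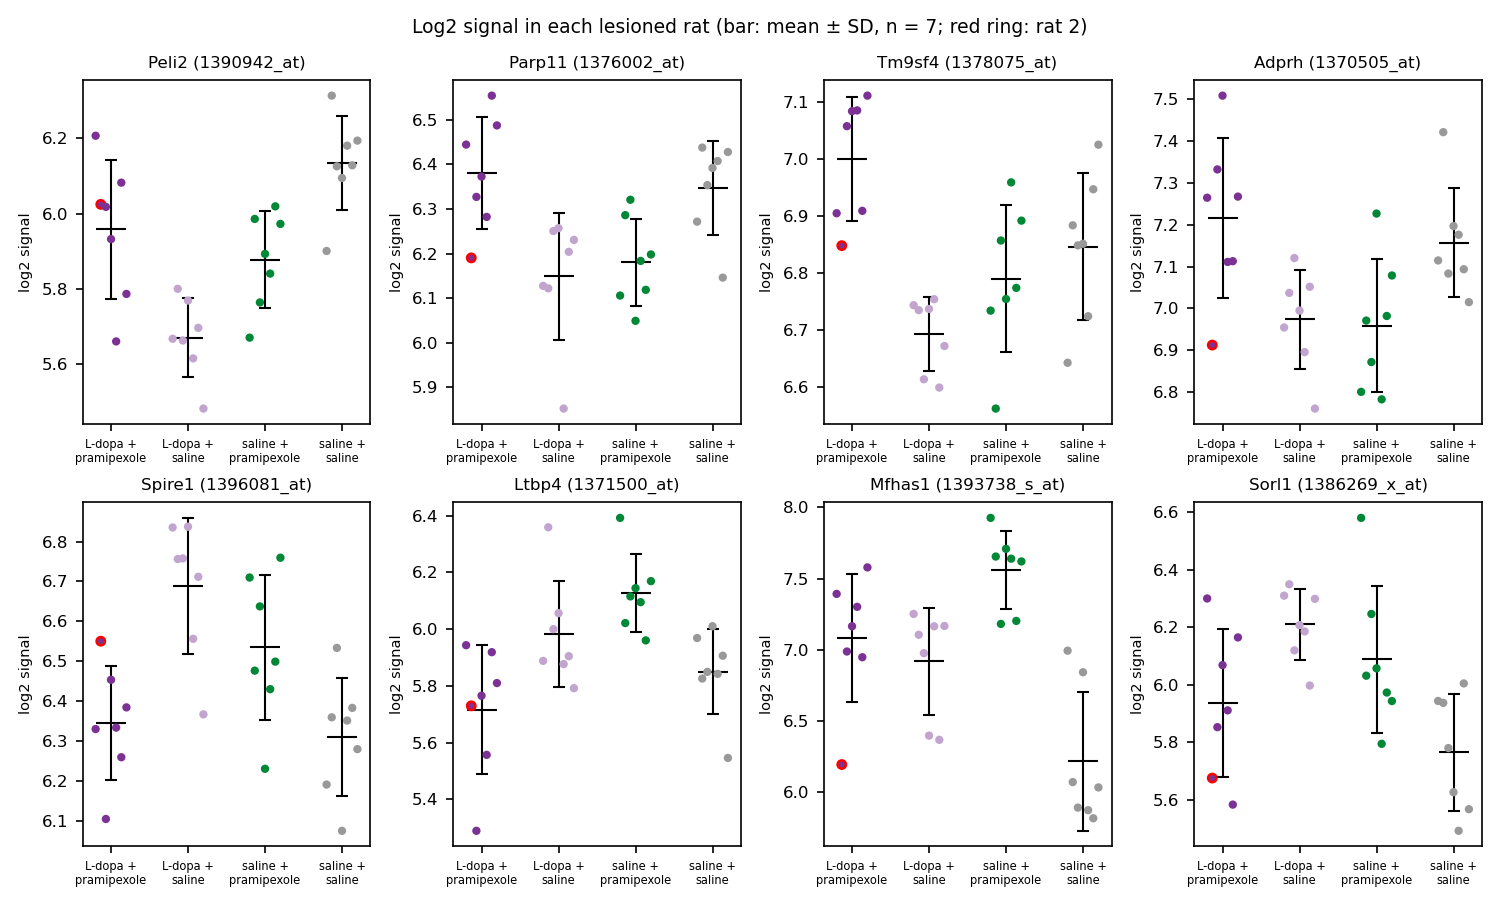
Log2 signal (y axis) of 4 genes with a positive interaction (top) and 4 with a negative one (bottom) in each of the 28 lesioned rats, with bars for the group mean ± SD (n = 7) and rat 2 ringed in red. The means of Parp11 and Adprh were lower in both groups given 1 drug than in those given both or neither, and Mfhas1 was low in rats given neither drug (5.82 to 6.99).

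In sham rats, which had received the vector with GFP, the same interaction was estimated in a fit of all 8 groups with the array set (arrays 1 to 37 against 38 to 56) as a block. All 7 sham rats given both drugs lie in the first set and all 14 sham rats without L-dopa in the second, while the sham group given L-dopa only has 2 rats (36 and 37) in the first and 5 in the second. The block is thus estimated within that group alone, and the sham values rest on its 2 rats of the first set. Of the 24 genes, 10 had the same sign there. Glt8d2 had 0.82 ± 0.37 in sham rats and Adprh -0.38 ± 0.17, opposite to the lesioned rats, whereas Spire1 (-0.34 ± 0.19) and Sorl1 (-0.27 ± 0.28) had the same sign, and Peli2 was at 0.01 ± 0.16. The test of lesioned minus sham interactions called 0 of 18500 probe sets in limma (0%; smallest adjusted p = 1), with 685 at an unadjusted p under 0.05 (3.7%). Of the 24 genes, 15 were among those 685. The 24 were selected on the lesioned side of that difference, so their share is not read against the background.

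**Figure D3:**
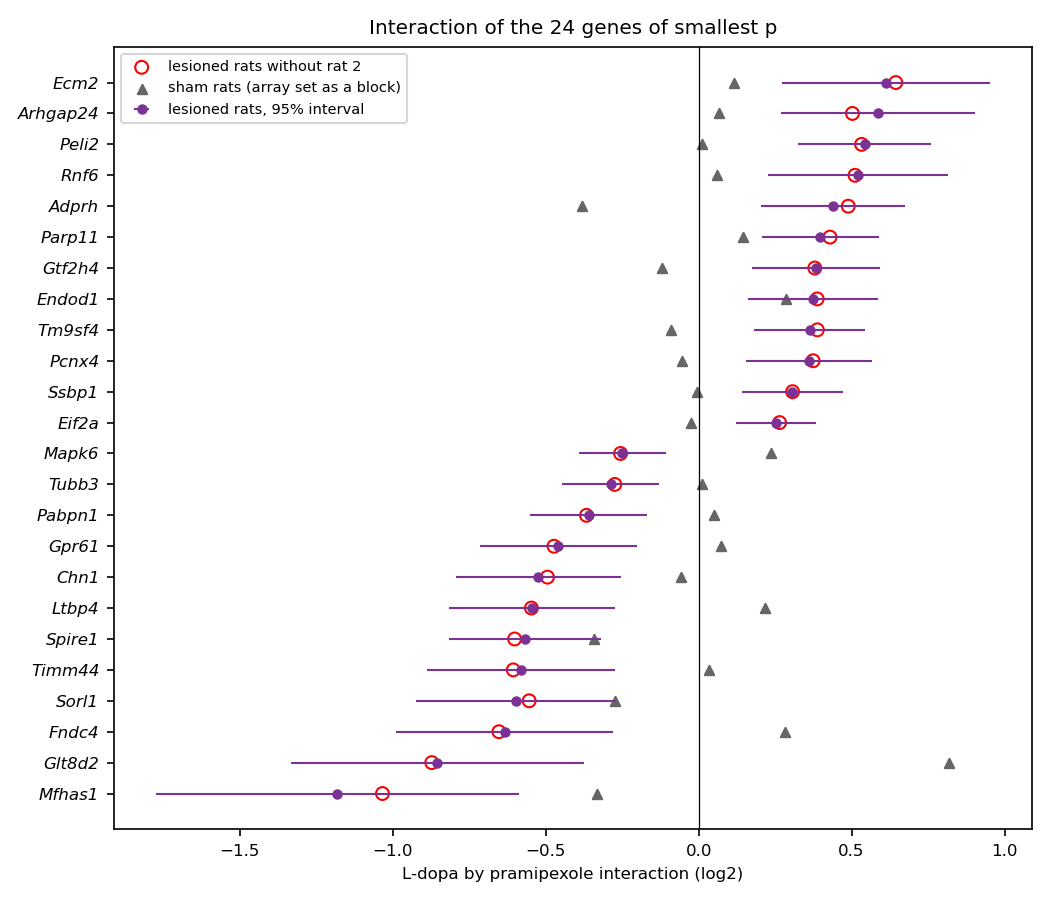
L-dopa by pramipexole interaction (x axis, log2) of the 12 positive and 12 negative genes of smallest p, with 95% intervals for all 28 lesioned rats, open circles without rat 2 and triangles for sham rats. Leaving out rat 2 moved Mfhas1 most, to -1.03, and the triangle of Glt8d2 lies at 0.82, across 0 from its lesioned value.

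No gene of medium spiny neurons passed. Here and below, fewer cells of a type and less RNA per cell cannot be told apart in bulk tissue. Of 11 markers of D1 neurons tested, 9 had a positive interaction (median 0.15), and of 4 markers of D2 neurons all 4 did (median 0.23), against 9100 of 18500 probe sets overall (median -0.00). Drd2 had 9.63, 9.76 and 10.22 (lowest, median and highest rat) with both drugs, 9.15, 9.61 and 9.99 with L-dopa only, 9.36, 9.65 and 10.02 with pramipexole only and 8.99, 9.67 and 10.09 with neither drug. All 4 groups overlapped, and its interaction was 0.26 ± 0.20 (95% interval -0.15 to 0.67). Tac1, which encodes substance P, was at 9.80, 10.25 and 10.61 with both drugs, 9.56, 9.97 and 10.55 with L-dopa only, 9.89, 10.32 and 10.59 with pramipexole only and 9.82, 10.67 and 10.98 with neither drug. Its interaction was 0.32 ± 0.24 (95% interval -0.18 to 0.82). Drd1 had 0.15 ± 0.18 (-0.22 to 0.52), Penk 0.10 ± 0.12 (-0.15 to 0.34) and Pdyn, prodynorphin, 0.09 ± 0.22 (-0.37 to 0.54). Eya1, among the 2 negative D1 markers, ran from -0.39 to -0.21 over the fits that left out 1 rat. The D1 marker Isl1 ran from 0.34 to 0.63 over the same fits. With the 3' minus 5' signal as a covariate the median of the D1 list was -0.01 and that of the D2 list 0.06, and with the cerebral cortex score as a covariate they were 0.01 and 0.02. Without rat 2 they were 0.18 and 0.22.

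Genes that carry the dopamine signal inside these neurons were positive in 23 of 27 cases, with a median of 0.06. The largest were Rxrg, a retinoid receptor (0.23), and Gnal, the G protein alpha subunit coupled to D1 receptors (0.23). Adcy5, the striatal adenylyl cyclase, had 0.18, and Ppp1r1b, which encodes DARPP-32, had 0.09. Prkar1b, a regulatory subunit of protein kinase A, was the only member under an unadjusted p of 0.05, at -0.26 ± 0.12. With the cerebral cortex score as a covariate the median of this list was -0.07 and 8 of 27 were positive. Rat 22, given neither drug, had the lowest score of this list (-0.375), and the highest median over the 28 fits that left out 1 rat, 0.15, was found without it. Among genes linked to L-dopa-induced dyskinesia 9 of 16 were positive (median 0.03). The largest of them was Gad1, glutamate decarboxylase, at 0.25 ± 0.12.

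Immediate early genes, which neurons switch on within minutes of activity, leaned the other way, with 18 of 23 members negative and a median of -0.18. None passed, and none had an unadjusted p under 0.05. Nr4a3, an orphan nuclear receptor, had -0.46 ± 0.30, Ier2 -0.33 ± 0.18 and Fosb, the AP-1 factor that accumulates with repeated L-dopa, -0.24 ± 0.21 (95% interval -0.67 to 0.19). Fos itself was at -0.28, Junb at -0.01 and Arc, the activity-regulated cytoskeletal gene, at -0.01 ± 0.31 (95% interval -0.64 to 0.61). The summed picture was that the score of rats given neither drug averaged -0.11, against 0.04 with both drugs, 0.02 with L-dopa only and 0.04 with pramipexole only. The median was -0.21 without rat 2 and -0.06 without rat 13, whose score of 0.42 was the highest of the 28. With the cortex score as a covariate it was also -0.06. In sham rats the median of these genes was -0.30, which like all sham interactions rests on 2 rats of the first array set. Sham medians did not follow the lesioned ones in every list. Glutamate receptor and postsynaptic genes were at -0.06 in both, but cortex markers were at -0.06 in sham and -0.48 in lesioned rats. D1 markers were at -0.04 and 0.15.

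Markers of the cerebral cortex, the tissue that overlies the striatum, were negative in 15 of 17 cases, with a median of -0.48. Neurod2, a factor of cortical projection neurons, was at 5.86, 6.63 and 6.83 (lowest, median and highest rat) with both drugs and 6.15, 6.99 and 7.29 with L-dopa only. With pramipexole only it was at 5.40, 6.38 and 7.20, and with neither drug at 5.20, 5.71 and 6.86. The groups overlapped widely, and the interaction was -0.81 ± 0.37 (limma adjusted p = 0.751). The vesicular glutamate transporter Slc17a7 had -0.54 and Neurod6 -0.54. Scores of this list ran from -0.745 to 0.273 with both drugs, -0.233 to 0.598 with L-dopa only, -0.746 to 0.562 with pramipexole only and -0.991 to 0.671 with neither drug. Leaving out 1 rat moved the median between -0.65 (without rat 21) and -0.30 (without rat 28). Kcnj4, an inwardly rectifying potassium channel and the other member of the list with an unadjusted p under 0.05, was positive at 0.21 ± 0.09. Of 31 glutamate receptor and postsynaptic density genes 20 were negative (median -0.06), among them Shank1 (-0.61), Shank2 (-0.28 ± 0.11) and Camk2a (-0.39), and that median was -0.05 with the cortex score as a covariate. Gria4, an AMPA receptor subunit, was positive at 0.19 ± 0.09. None of these genes passed. The part of cortical tissue in the individual values was not tested.

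GABA genes split evenly, with 8 of 15 positive (median 0.00). The receptor subunit Gabrb1 was at -0.25 ± 0.10 and gephyrin, the receptor scaffold encoded by Gphn, at 0.22 ± 0.10. Neuropeptides and opioid receptors were positive in 9 of 18 cases (median -0.03), with the somatostatin receptor Sstr2 at -0.55 ± 0.25 and pronociceptin Pnoc at -0.63 ± 0.33, or -0.32 without rat 3. Without rat 9 the median of that list was -0.12, and with the 3' minus 5' signal as a covariate it was -0.18 with 5 positive. The 2 genes of cholinergic interneurons stood together, Chat (choline acetyltransferase) at 0.41 ± 0.19 and Slc5a7 (the choline transporter) at 0.42 ± 0.22. Chat had 5.93, 6.24 and 6.51 with both drugs, 5.70, 6.03 and 6.50 with L-dopa only, 5.91, 6.21 and 6.81 with pramipexole only and 5.94, 6.58 and 6.63 with neither drug, with all groups overlapping. Of the genes kept for dopamine terminals, 4 of 6 were positive (median 0.10). Ret, the receptor of the GDNF family, was at 0.87 ± 0.30, on a dim probe set with a mean of 5.20 against the minimum of 5. Its median signal was 5.18 with both drugs, 4.92 with L-dopa only, 4.96 with pramipexole only and 5.49 with neither drug.

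**Figure D4:**
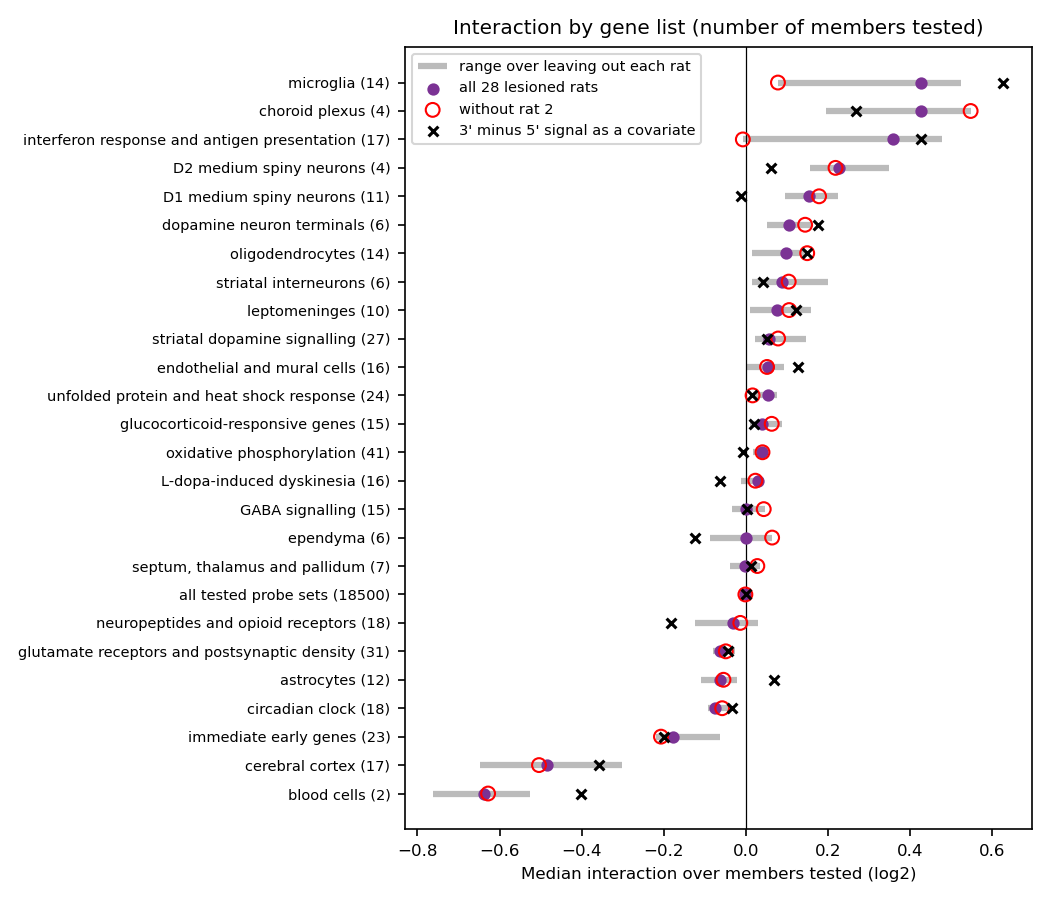
Median interaction (x axis, log2) of each of 25 gene lists and of all 18500 probe sets, with the number of members tested, for all 28 lesioned rats, without rat 2, and with the 3' minus 5' signal as a covariate; grey bars span the fits that leave out each rat in turn. The microglial and interferon medians lie at 0.43 and 0.36 and move to 0.08 and -0.01 without rat 2.

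The positive values of immune genes were smaller without rat 2. Microglial markers were positive in 14 of 14 cases with a median of 0.43, and interferon and antigen presentation genes in 16 of 17 with a median of 0.36. Without rat 2 the counts were 9 of 14 and 8 of 17, and the medians 0.08 and -0.01. C1qc, a complement component made by microglia, had 6.30, 6.75 and 10.50 (lowest, median and highest rat) with both drugs, 6.20, 6.46 and 6.76 with L-dopa only, 6.20, 6.49 and 6.73 with pramipexole only and 6.53, 6.59 and 7.02 with neither drug. Rat 2 alone held the value of 10.50, the next rat of its group being at 6.96. The C1qc interaction was 0.88 ± 0.54 with rat 2 and 0.32 ± 0.15 without it. Laptm5, a lysosomal protein of immune cells, had 0.66 ± 0.32 and 0.41 ± 0.22 without rat 2, and the interferon-induced protease Usp18 had 0.81 ± 0.35 and 0.59 ± 0.30. The microglial score of rat 2 was 2.49, against -0.207 to 0.111 in the other 6 rats given both drugs and -0.306 to 0.073 over the other 3 groups.

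Choroid plexus genes varied widely from rat to rat. Ttr, transthyretin, the main secreted protein of the choroid plexus, had 5.49, 6.96 and 12.59 (lowest, median and highest rat) with both drugs and 4.28, 5.07 and 5.37 with L-dopa only. With pramipexole only it had 4.73, 5.77 and 7.46, and with neither drug 4.10, 7.24 and 10.88. Every rat given both drugs was above every rat given L-dopa only, while the range with neither drug spanned most of the others. Its interaction was the largest of the named genes, 3.64 ± 1.17 (95% interval 1.23 to 6.05), and did not pass (limma adjusted p = 0.656). Enpp2, autotaxin, had 0.46 ± 0.19, Folr1 0.39 and Aqp1 0.12, so 4 of 4 tested markers were positive, with a median of 0.43 that was 0.20 without rat 7. Rat 7, given both drugs, had the highest choroid plexus score of the 28 (2.48). The scores ran from -0.497 to 2.48 with both drugs, -0.709 to -0.0771 with L-dopa only, -0.649 to 0.299 with pramipexole only and -0.700 to 1.33 with neither drug.

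Haemoglobin genes, markers of red blood cells, were negative. The 2 tested haemoglobin members had interactions of -0.69 ± 0.25 (Hbb) and -0.59 (Hba-a3). Hbb had 9.71, 9.78 and 10.68 (lowest, median and highest rat) with both drugs, 10.31, 10.91 and 11.08 with L-dopa only, 10.00, 10.39 and 10.92 with pramipexole only and 10.07, 10.56 and 11.28 with neither drug. Rat 1 held the value of 10.68, and the other 6 rats given both drugs were below every rat given L-dopa only. Hbb and 3 other globin probe sets passed for pramipexole with L-dopa when rat 1 was left out, with Hbb at -0.993 ± 0.16 (limma adjusted p = 0.0135), and Hbb and 2 of these passed with all 56 arrays in the fit (adjusted p = 0.0347 for Hbb). The interaction of Hbb passed in neither. Globin genes are close copies of each other, and their probe sets may share signal.

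**Figure D5:**
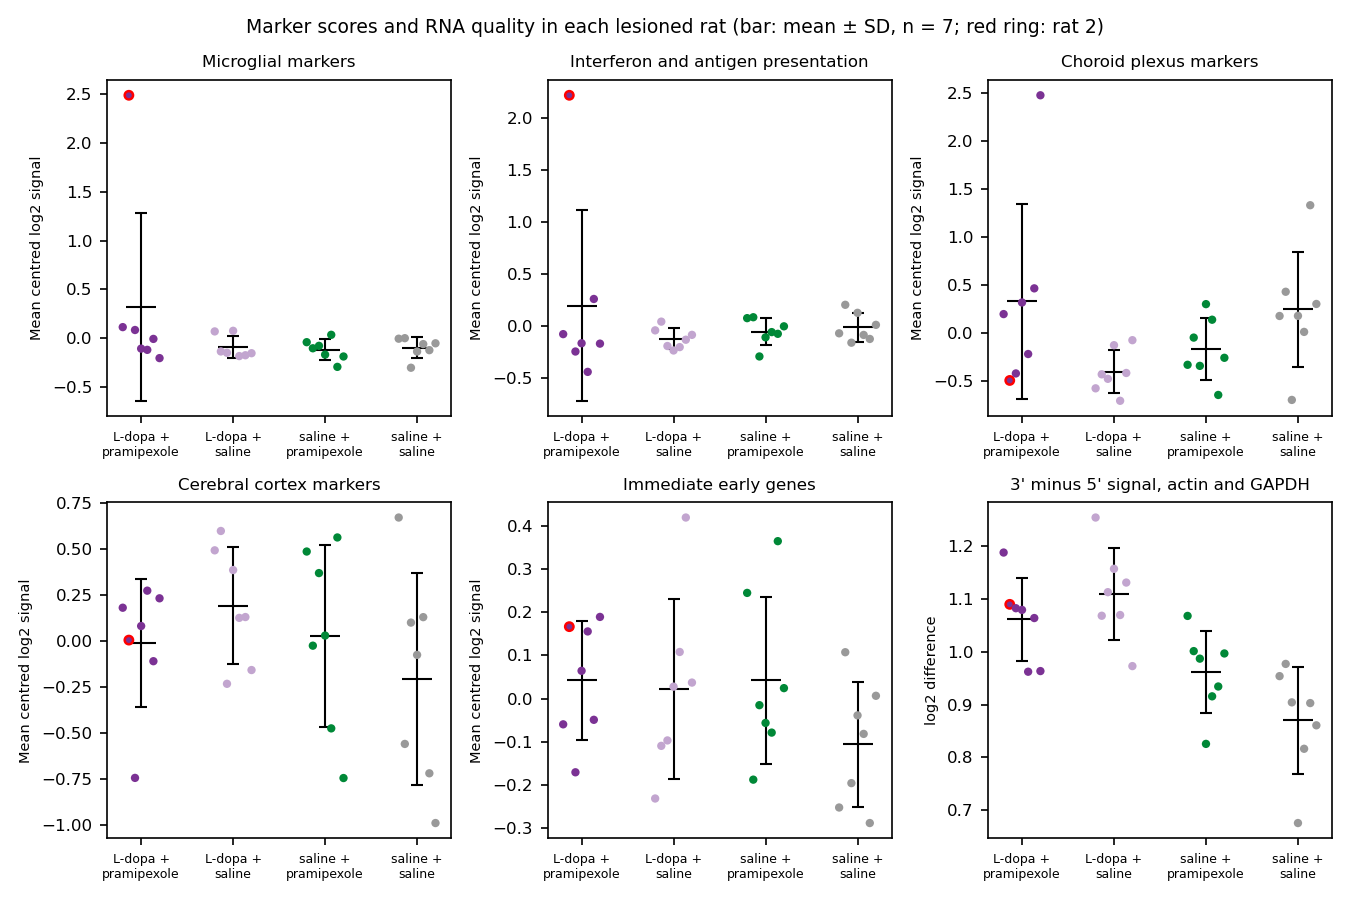
Mean centred log2 signal of 5 gene lists and the 3' minus 5' signal (y axes) in each lesioned rat, with bars for the group mean ± SD (n = 7) and rat 2 ringed in red. Rat 2 stands alone for microglial (2.49) and interferon genes (2.21) and rat 7 for choroid plexus genes (2.48).

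The remaining lists lay near the median of all probe sets. Unfolded protein and heat shock genes were positive in 21 of 24 cases, but with a median of 0.05 that was 0.02 without rat 2. Hyou1, a chaperone of the endoplasmic reticulum, had 0.48 ± 0.18, with 5.06 to 5.68 in rats given both drugs, 5.20 to 5.65 with L-dopa only, 4.66 to 5.56 with pramipexole only and 5.41 to 5.80 with neither drug. Oxidative phosphorylation subunits were positive in 27 of 41 cases (median 0.04) and clock genes in 7 of 18 (median -0.07), led by Per2 at -0.29. Glucocorticoid-responsive genes were positive in 11 of 15 cases (median 0.04), with the sulfotransferase Sult1a1 at 0.45 ± 0.19. Oligodendrocyte genes were positive in 10 of 14 (median 0.10) and astrocyte genes in 3 of 12 (median -0.06), Slc1a3, the glial glutamate transporter, being at -0.21 ± 0.09. Astrocytes turned to a median of 0.07 with the 3' minus 5' signal as a covariate. Endothelial and mural genes were positive in 10 of 16 (median 0.05; Flt1 0.58 ± 0.26), leptomeningeal genes in 7 of 10 (median 0.08; Crabp2 0.48 ± 0.19), ependymal genes in 3 of 6 (median 0.00) and genes of septum, thalamus and pallidum in 3 of 7 (median -0.00; Nkx2-1 0.37 ± 0.14). Tek, of the endothelial list, was negative, at -0.26 to -0.15 over the fits that left out 1 rat. Trpc4, of the septum, thalamus and pallidum list, ran from -0.64 to -0.40 over the same fits. Of striatal interneuron genes 5 of 6 were positive (median 0.09). No member of any of the 25 lists passed for the interaction.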

How the data were processed

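RNA from each dorsal striatum (100 ng, 3' IVT labelling) was hybridised to a single array. The authors made the signals with MAS5, per the submitters' processing notes; its version and scaling target are not given in the sources used here. The deposited values are log2 signals, used as they stand: unlogged, their trimmed mean (2% off each end) was 150.042 to 150.045 on each of the 28 arrays, as after scaling to a common level by the authors. Detection calls were not used. Precision is limited by the number of arrays.

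Of 31099 probe sets, 57 are controls, and 18500 of the other 31042 had a mean above 5 over the 28 arrays. Of these, 13540 carry 1 gene symbol, 309 several and 4651 none, from the platform annotation; 99.7% of gene numbers matched the rat gene table and 0 symbols changed. Means of the 4 groups were fitted with limma 3.58.1 and eBayes in R 4.3.3, p-values were two-sided and adjusted (Benjamini-Hochberg) over all 18500, and a call is an adjusted p under 0.05. Sham rats entered only the lesioned minus sham fit, which also gave the sham interactions, the alternative fit of all 56 arrays and the search for the array step. The 24 genes are the 12 of smallest interaction p in each direction. Every called gene was named, with up to 2 genes per list of smallest p, and Drd1, Drd2, Drd3, Penk, Pdyn, Tac1, Fosb, Arc and Th always; what else that rule fixed is not reported here. Further members of a list were named after their values were seen. A list takes each gene's brightest probe set, and a score is the mean of its members, each centred over the 28 rats. The 25 lists hold 492 members, 374 of them tested. The rats compared and the lists were chosen with earlier results of these data known. The steps were tested on simulated data. Alternatives were the filter, quantile normalization, an intensity trend with robust prior, array weights, all 56 arrays, 3 covariates, 16 added to the unlogged signal, and leaving out each rat; list medians under these were added after seeing the data.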

Additional observations from a re-analysis of the deposited data

Results flagged for a closer look

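In 44 of 432 groups of 7 values examined, 1 rat lay far from the other 6 (gap over range above 0.568), and chance alone sets 1 rat apart in about 1 in 20 groups. The values below are log2 signals or mean centred scores, with the other 6 rats of the same group in brackets.

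Rat 2, given both drugs, was apart in 8 groups. It was high for the microglial score (2.49; -0.207 to 0.111), the interferon score (2.21; -0.442 to 0.258), C1qc (10.5; 6.3 to 6.96), Laptm5 (8.49; 6.16 to 7.02), Arhgap24 (6.78; 6.1 to 6.27) and the chaperone Pdia3 (10.4; 9.83 to 9.96). It was low for Eya1 (6.39; 7.09 to 7.31) and the ependymal score (-0.501; -0.0307 to 0.302).

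Rat 3, given both drugs, was high for Drd2 (10.2; 9.63 to 9.88), the D2 neuron score (0.388; -0.13 to 0.0517) and the dopamine signalling score (0.281; -0.0628 to 0.0182). The same rat was low for the cerebral cortex score (-0.745; -0.111 to 0.273), the neuropeptide score (-0.572; -0.0858 to 0.174), the interneuron score (-0.544; -0.0785 to 0.25), Sstr2 (5.33; 5.96 to 6.4) and Pnoc (3.11; 5.01 to 5.61). Rat 7, given both drugs, was high for the choroid plexus score (2.48; -0.497 to 0.464), Ttr (12.6; 5.49 to 7.49) and Enpp2 (11.4; 10.1 to 10.6). Rat 1, given both drugs, was high for the blood score (0.32; -0.914 to -0.405) and Hbb (10.7; 9.71 to 10).

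Among rats given L-dopa only, rat 11 was low for Mfhas1 on 1398648_at (5.21; 6.14 to 6.52) and high for Arhgap24 (6.08; 5.76 to 5.89). Rat 12 was low for Parp11 (5.85; 6.12 to 6.26), Enpp2 (10; 10.2 to 10.4) and the myelin gene Mog (9.54; 9.76 to 9.85). Rat 13 was low for Mx2 (5.74; 6.52 to 6.99) and high for the dopamine terminal score (0.265; -0.175 to -0.0228). Rat 10 was high for Nkx2-1 (5.83; 5.31 to 5.49), and rat 14 for Chn1 (6.43; 5.85 to 6.09).

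Among rats given pramipexole only, rat 19 was low for Eif2a (7.81; 7.92 to 7.96) and Gpr61 (5.2; 5.63 to 5.91). Rat 20 was low for Arhgap24 (5.39; 5.9 to 6.28) and high for Kcnj4 (8.01; 7.65 to 7.78). Rat 21 was high for Pdyn (10.5; 9.69 to 10), and rat 17 was low for the glucocorticoid score (-0.252; -0.0336 to 0.0821).

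Rat 22, given neither drug, was apart in 7 groups. It was low for Drd1 (10.3; 10.9 to 11.1), Isl1 (5.14; 5.85 to 6.36), Chat (5.94; 6.42 to 6.63), the dopamine signalling score (-0.375; -0.0292 to 0.17) and the dyskinesia score (-0.243; 0.00444 to 0.143). It was high for Eya1 (7.5; 6.96 to 7.18) and C1qc (7.02; 6.53 to 6.66). Rat 28 of the same group was low for Ltbp4 (5.55; 5.83 to 6.01).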

How the results depend on the processing

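The interaction gave 0 calls in limma under the other 11 settings (smallest adjusted p 0.0711 with quantile normalization to 0.688 with the choroid plexus covariate) and 0 to 1 over the fits leaving out 1 rat, with 644 to 1807 and 970 to 1574 probe sets at an unadjusted p under 0.05. Calls for pramipexole with L-dopa (0) were 1 without a filter, 3 with 56 arrays and 0 to 4 over single rats left out, 4 without rat 1. Those for pramipexole without L-dopa (2) were 1 without a filter, 0 at a mean above 7, 0 with 56 arrays, 1 with the 3' minus 5' covariate and 1 to 5 over single rats, 5 without rat 23. Those for L-dopa without pramipexole (2) were 1 at a mean above 7, 1 with quantile normalization, 0 with trend and robust prior, 4 with array weights, 0 with the 3' minus 5' covariate, 4 with 16 added and 0 to 7 over single rats, 7 without rat 23. L-dopa with pramipexole gave 0 in all of these fits. None of the probe sets called in the main fit had a mean above 7, so none was tested at that setting. The 1 call there, for L-dopa without pramipexole, was a probe set of Hspa9 (-0.257, limma adjusted p = 0.0469). Lesioned minus sham gave 0 in the 4 settings run (no array set term, without rat 2, no filter, quantile normalization), and no other rat was left out there. Of the interactions of 82 named probe sets, 854 of 860 values under other settings and 2283 of 2296 with 1 rat left out had the same sign and side of the threshold. Drd1 turned to -0.0183 with the 3' minus 5' covariate and -0.0361 with the cortex covariate, and Pdyn to -0.0901 and -0.0941, with -0.0218 to 0.175 over single rats. Arc was 0.00512 with the 3' minus 5' covariate, 0.0819 with the choroid plexus covariate and -0.151 to 0.171 over single rats. All 24 genes kept their sign and an unadjusted p under 0.05 wherever tested (8 of them at a mean above 7), which their selection favours. The causes were not tested. No paired analysis was possible because each rat number occurs once. With 7 rats a group, interactions near the median SE of 0.13 could not be told from 0. Interactions of several SE did not pass either, as with Peli2 (0.54 ± 0.11, limma adjusted p = 0.318) and Mfhas1 (-1.18 ± 0.29, 0.608). The 0 calls thus do not exclude interactions of this size.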
